A study of Mus musculus with 5 samples.

Results

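The Notch pathway was represented by 10 genes: the receptors Notch1, Notch2 and Notch3, the ligands Dll1, Dll4, Jag1 and Jag2, the target genes Hes1 and Hey1, and Rbpj, which encodes the DNA-binding protein of the pathway. They are 10 of the 22380 protein-coding genes of the GENCODE vM1 annotation. A peak of histone H3 acetylated at lysine 9 (H3K9ac) was assigned to one of these genes when the peak was centred no farther than 10 kb from an annotated transcript start of that gene. By this rule 30 of 34286 peaks belonged to them in 4-deoxypyridoxine (DOP)-treated cells and 24 of 33355 in vehicle-treated cells. These totals are of the deposited peak lists, which hold more peaks than the study's methods report. The genes were set by their names and not by their peaks, although earlier results of these data were known when they were chosen.

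H3K9ac ChIP-seq was performed on STHdh Q111 cells, a conditionally immortalized line of mouse striatal progenitor cells with the genotype STHdhQ111/Q111 and the label C57BL/6 for strain. All cells carried mutant huntingtin and were kept in serum-free medium for 24 h, either with 4 mM 4-deoxypyridoxine hydrochloride (Q111 DOP, 2 samples) or with the DPBS vehicle (Q111 SST, 2 samples). An IgG sample of the serum-starved cells (n = 1) was the negative control, and the wild type Q7 samples named in the study design were not analysed here. The values come from 1 peak list per condition, and the reads of the single samples were not analysed here, so the samples of a condition were not compared with each other. Every value below describes 2 lists, with no replicate error and no test, and the depth behind the peaks is unknown. Each peak spans 200 bp around the called position and has a score whose definition was not given in the sources used here, and scores are therefore given with their percentile within the list they come from. The cell type of the labels was checked against H3K9ac peaks at marker genes. Among all protein-coding genes, 57.7% (DOP list) and 56.9% (vehicle list) had a peak within 10 kb. Of the neural progenitor markers, 3 of 6 had a peak within 10 kb in DOP-treated cells and 2 of 6 in vehicle-treated cells, while Nes, Sox2 and Pax6 had none. These counts include Hes5, whose peaks were all nearest to the start of Pank4, and besides it only Vim had a peak in both lists and Fabp7 a weak one in the DOP list (percentile 19.2). Of the striatal lineage markers, 4 of 8 and 3 of 8 had a peak, and among the markers of mature striatal neurons 1 of 8 had a peak in each list. Fibroblast markers had a peak in 3 of 5 genes in each list, with Dcn and Lum at none. Astrocyte markers had a peak in 1 of 4 genes and microglia markers in 1 of 5 in each list, oligodendrocyte markers in 2 of 5 (DOP) and 1 of 5 (vehicle), and endothelial markers in 1 of 4 and 0 of 4. The summed scores of the progenitor markers were 5118.1 and 5286.0, and those of the fibroblast markers 3847.0 and 3667.8 (DOP and vehicle lists, respectively). The progenitor sums cover 6 genes and the fibroblast sums 5. Those of the striatal lineage were higher, at 5552.6 and 5538.0 over 8 genes. Mature striatal neuron markers had 1448.0 and 1442.0, and microglia markers 2868.0 and 2982.9, all from Aif1. The sums of astrocyte markers were 100.0 and 125.9, of oligodendrocyte markers 328.0 and 156.0, and of endothelial markers 179.0 and 0.0. Of the progenitor sums, 1536.0 and 1603.0 came from the Hes5 peaks nearest to Pank4. The progenitor and striatal lineage shares lay below those of all genes in both lists, so the counts do not establish the labelled cell type. A peak of H3K9ac is a mark on chromatin and not a measure of transcript level.

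In Notch signaling, a ligand of the Delta or Jagged family on one cell binds a Notch receptor on its neighbour, and proteases then release the intracellular domain of the receptor. This fragment enters the nucleus and joins RBPJ on DNA, where co-repressors are exchanged for co-activators that include histone acetyltransferases. HES and HEY proteins, whose genes are classical targets, are repressors that hold back neuronal differentiation and maintain neural progenitors, and H3K9ac is a mark of active promoters.

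The sequences of several member regions are shown because they carry the contrasts described below: the highest-scoring peaks of the receptor and nuclear genes, a peak at Hes1 that was found in DOP-treated cells only, and the 200 bases in front of the starts of the members without a peak. All were read 5′ to 3′ on the strand of the gene from the NCBIM37 assembly, which is mm9, and capitals mark CG dinucleotides. The highest peak of Notch2 in DOP-treated cells lay at chr3:97817695-97817894 (plus strand), that of Rbpj at chr5:53982168-53982367 (plus strand), and the highest peak of Notch1 at chr2:26358850-26359049 (minus strand). The Hes1 peak lay at chr16:30066525-30066724 (plus strand). The bases in front of Jag2 and Notch3 were chr12:114167707-114167906 and chr17:32303826-32304025 (both minus strand).
Notch1 highest DOP peak: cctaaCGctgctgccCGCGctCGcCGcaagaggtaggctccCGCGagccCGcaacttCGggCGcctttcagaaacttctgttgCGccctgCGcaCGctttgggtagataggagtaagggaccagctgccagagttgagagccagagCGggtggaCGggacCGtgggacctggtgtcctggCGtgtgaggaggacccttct
Notch2 highest DOP peak: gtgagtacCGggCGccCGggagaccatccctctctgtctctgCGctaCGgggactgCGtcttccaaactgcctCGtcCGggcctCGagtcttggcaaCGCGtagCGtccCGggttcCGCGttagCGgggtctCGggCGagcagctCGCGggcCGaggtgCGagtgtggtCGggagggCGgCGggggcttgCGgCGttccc
Rbpj highest DOP peak: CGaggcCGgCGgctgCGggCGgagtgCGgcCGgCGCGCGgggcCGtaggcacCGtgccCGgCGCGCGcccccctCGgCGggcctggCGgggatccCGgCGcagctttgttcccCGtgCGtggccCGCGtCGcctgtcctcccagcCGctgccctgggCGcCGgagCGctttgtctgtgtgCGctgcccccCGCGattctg
Hes1 DOP-only peak: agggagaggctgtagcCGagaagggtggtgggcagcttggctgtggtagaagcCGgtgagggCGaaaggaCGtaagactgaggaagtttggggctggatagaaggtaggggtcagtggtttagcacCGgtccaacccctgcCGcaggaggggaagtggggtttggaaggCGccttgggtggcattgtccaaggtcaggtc
Jag2 before its start, no peak: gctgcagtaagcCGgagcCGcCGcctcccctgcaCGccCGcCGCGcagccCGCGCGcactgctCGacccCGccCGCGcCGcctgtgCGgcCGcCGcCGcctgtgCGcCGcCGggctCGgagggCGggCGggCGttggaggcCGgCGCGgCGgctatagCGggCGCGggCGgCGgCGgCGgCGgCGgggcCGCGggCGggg
Notch3 before its start, no peak: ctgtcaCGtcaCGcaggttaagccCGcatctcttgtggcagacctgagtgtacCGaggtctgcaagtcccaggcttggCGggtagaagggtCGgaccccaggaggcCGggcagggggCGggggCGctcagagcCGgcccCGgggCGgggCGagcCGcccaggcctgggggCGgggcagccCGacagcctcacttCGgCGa
The peaks of Notch2 and Rbpj contained 27 and 33 CG dinucleotides in 200 bases, and the Notch1 peak 17. The Hes1 peak held 7. The stretch before Jag2, where no peak was called, held 42, more than any of these peaks, and that before Notch3 held 18.

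To determine which members carried H3K9ac near their starts, the peaks of each list were counted per gene. The same 8 of 10 members had a peak in DOP-treated and in vehicle-treated cells, compared with 57.7% and 56.9% of all protein-coding genes, respectively. Notch3 and Jag2 had none in either list. In 7 of these 8 genes a peak lay less than 1 kb from a start, whereas the peaks of Dll4 lay more than 9 kb from its nearest start. No other protein-coding gene had a start nearer to any member peak than the member itself. The rule's limit fell between a DOP peak of Dll4 at 9752 bp, with a score of 90.1, and a DOP peak of Notch2 at 11626 bp, with a score of 327.0, which was left out.

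**Figure D1:**
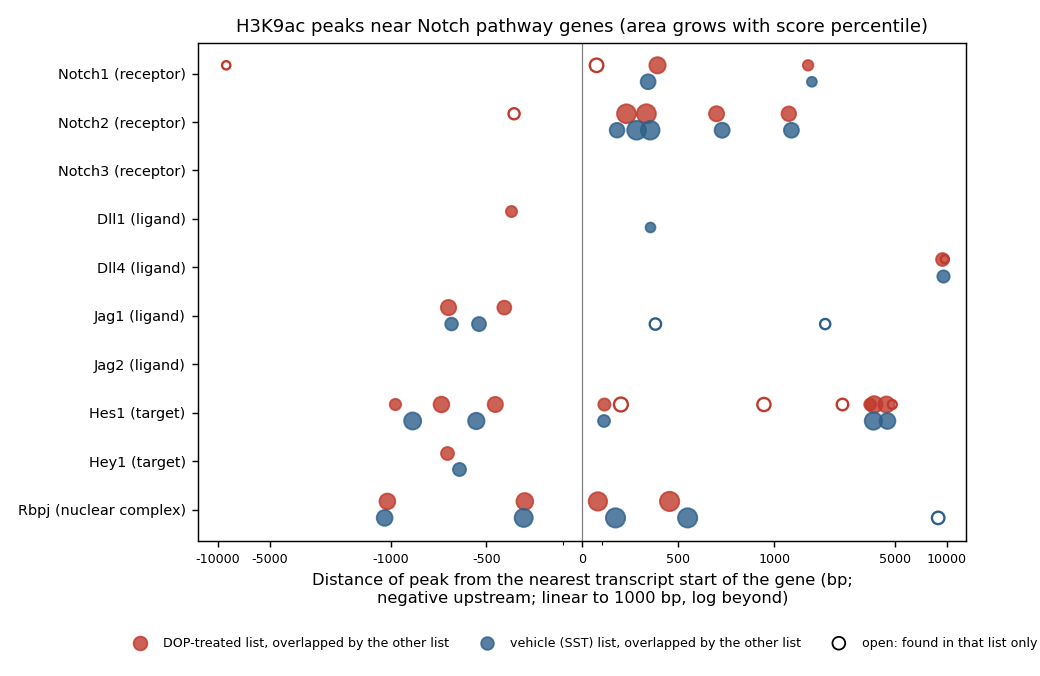
Position of each member peak relative to the nearest transcript start of its gene, in bp (negative is upstream; the axis is linear to 1000 bp and logarithmic beyond). Points are peaks of the DOP (red) and vehicle (blue) lists, open points were found in that list only, and area grows with the score percentile. Of 30 DOP peaks, 19 lay within 1 kb of a start, as did 16 of 24 vehicle peaks, and Notch3 and Jag2 have no point.

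The peaks of the members were of mixed strength. Their median score was 373 in the DOP list and 432 in the vehicle list, against 419 and 400 for all peaks, and 3 member peaks of each list were in its top 10%. The strongest peak of a member had a median percentile of 61.0 in DOP-treated cells and 49.6 in vehicle-treated cells, against 78.4 and 77.3 for all genes with a peak. Only Rbpj and Notch2 had a strongest peak above the 90th percentile in either list. Members had a median of 3 peaks in each list, equal to the median of all genes with a peak. Of the members' peaks, 63.3% (DOP) and 66.7% (vehicle) lay less than 1 kb from a start, against 86.9% and 87.7% of all peaks within 10 kb of a start. The peaks farther out belonged to Notch1, Notch2, Dll4, Jag1, Hes1 and Rbpj.

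**Figure D2:**
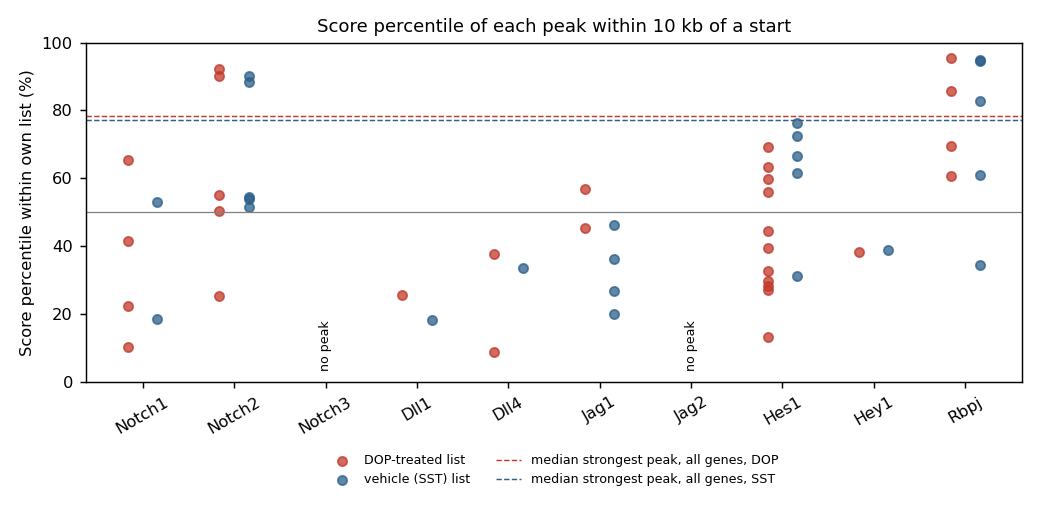
Score percentile of every member peak within its own list (red DOP, blue vehicle). The dashed lines mark the median percentile of the strongest peak over all genes with a peak, 78.4 and 77.3, and only peaks of Notch2 and Rbpj lie above both lines.

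Next, the lists were compared at the members. The number of peaks was higher in DOP-treated cells at 3 of the 8 genes (Notch1, Dll4 and Hes1), lower at 2 (Jag1 and Rbpj) and equal at 3 (Notch2, Dll1 and Hey1). Over the genome, among genes with peaks in at least one of the lists, 32.5% had more peaks in DOP-treated cells and 28.5% had fewer. Of the member peaks, 8 of 30 in the DOP list overlapped no vehicle peak, compared with 20% of all DOP peaks. In the vehicle list 3 of 24 overlapped no DOP peak, compared with 16.7% of all vehicle peaks. With centres within 500 bp counted as shared, 25 of 30 DOP peaks and 21 of 24 vehicle peaks were shared. Within 1 kb, 26 and 22 were shared. Shares over all peaks by these wider rules are not given here. The shares of member peaks that overlapped were 73.3% (95% Wilson interval 55.6 to 85.8) and 87.5% (69.0 to 95.7), where the intervals cover the counting of peaks only and treat neighbouring peaks as separate. The shares over all peaks, 80% and 83.3%, lay within these intervals. That comparison is not a test, because the intervals hold no spread between samples, and no conclusion is drawn from it.

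The scores of the peaks of each gene were then summed, and the ratio of the sums (DOP over vehicle) was divided by the median ratio of all genes with a peak in both lists, which was 1.07. After this centring 1 of the 8 members, Notch1, was more than 1.5-fold higher in DOP-treated cells, and 0 were more than 1.5-fold lower. Over all genes with a peak in both lists these shares were 3.83% and 2.18%, and the interquartile range of the log2 ratio was -0.14 to 0.16. The median log2 ratio of the members was 0.18, with 4 genes above and 4 below 0. The median was -0.05 with windows of 1 or 5 kb, or with starts of coding transcripts, so its direction was not stable. Summed by role, the receptors had scores of 4628.0 (DOP, 9 peaks) and 3986.0 (vehicle, 7 peaks), and the ligands 1476.3 (5 peaks) and 1441.0 (6 peaks). The targets had 4291.0 (12 peaks) and 3025.6 (6 peaks). Rbpj, the nuclear member, had 3530.0 (4 peaks) and 4333.0 (5 peaks). Before centring, the sums of receptors, ligands and targets were all higher in the DOP list. The difference of the ligands was smaller than the median ratio of 1.07 and would not remain after centring. The difference of the receptors came almost wholly from Notch1 and that of the targets from Hes1. The covered length behind each gene's sum is given below.

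**Figure D3:**
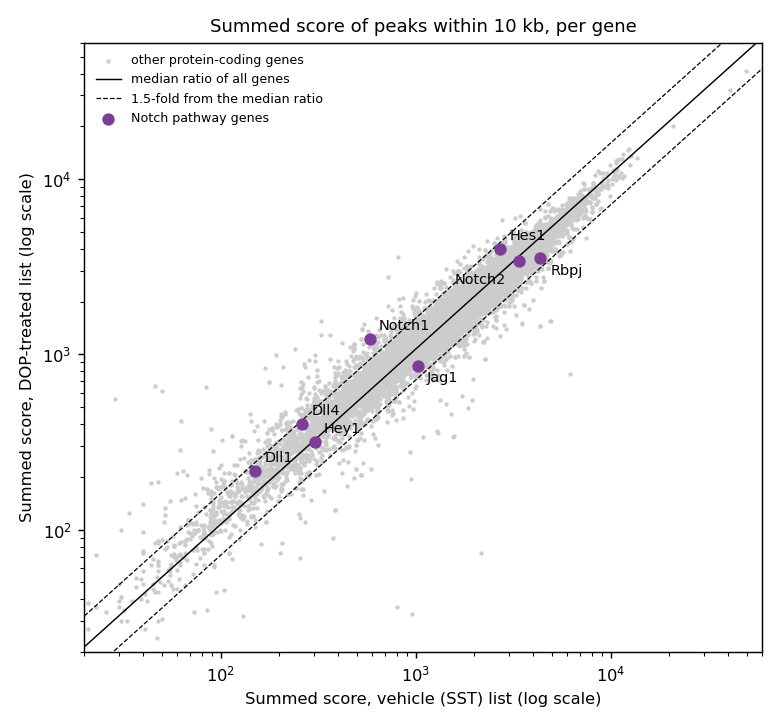
Summed score of the peaks within 10 kb of each gene in the vehicle list (x axis) and the DOP list (y axis), both logarithmic. Grey points are the other protein-coding genes with a peak in both lists, the solid line is their median ratio and the dashed lines lie 1.5-fold from it. Of the 8 labelled members, Notch1 lies outside the dashed lines.

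Neighbouring peaks of the caller often overlapped or split differently between the lists. Therefore, peaks of both lists that overlapped were also joined into stretches, a step chosen after the data were seen. The 54 member peaks formed 28 stretches, of which 17 held peaks of both lists, 8 of the DOP list only and 3 of the vehicle list only. Over the genome 66.0% of 36274 stretches held peaks of both lists. How the others divided between the lists is not given here, so the 8 and 3 cannot be set against a background. Within the 17, 0 stretches were more than 1.5-fold higher in DOP-treated cells and 1, at Rbpj, was more than 1.5-fold lower, against 3.72% and 2.25% of all such stretches. At Notch1, Dll4, Jag1 and Hes1 the ratio of the sums lay farther from 1 than that of any shared stretch of the gene.

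Notch1 and Notch2 are the broadly used receptors of neural progenitors. Notch1 (chr2:26313423-26372183, minus strand) had 4 DOP peaks, with scores of 581.0, 345.0, 191.0 and 100.0, and 2 vehicle peaks, with scores of 428.0 and 153.0. The sums were 1217.0 over 800 bp and 581.0 over 400 bp, with mean scores of 304 and 290, and the centred ratio was 1.95 (log2 0.96). Both vehicle peaks overlapped a DOP peak, whereas 2 DOP peaks did not overlap a vehicle peak. One of these, at chr2:26359168-26359367, covered the start at 26359342 and lay in the UTR of that transcript (percentile 41.6). Its centre was 269 bp from that of the vehicle peak with a score of 428.0. The other, at chr2:26381050-26381249, lay 8967 bp upstream of the first Notch1 start and was among the weaker peaks of the list (percentile 10.1). The 2 stretches found in both lists had ratios of 1.26 and 1.16. The call at Notch1 was lost when only overlapping peaks were summed (log2 ratio 0.33), when the highest peak was used in place of the sum (0.36), and with a window of 20 kb (0.06), which takes in 4 DOP and 5 vehicle peaks that are nearest to the start of Sec16a.

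The annotation gives Notch1 13 transcript starts, and the peaks were close to few of them. The most upstream starts, at 26372183 and 26372156, belong to protein-coding transcripts and were 8580 and 8553 bp from the nearest DOP peak. A protein-coding transcript starts at 26359342 and a retained-intron transcript at 26359344. Only these starts had a peak within 1 kb, with 2 DOP peaks and 1 vehicle peak. The starts from 26318267 to 26326018 all belong to processed transcripts inside the gene. Which start these cells use was not examined here. The 300 bases around the start at 26372183 (250 before and 50 after it) held 2 CG dinucleotides, and those around 26359342 held 23.

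Notch2 (chr3:97817461-97954290, plus strand) has a single annotated start and had 5 peaks in each list. The DOP scores were 213.0, 1114.4, 1194.1, 467.5 and 422.0 in order along the gene, and the vehicle scores were 413.8, 1092.7, 1019.5, 443.0 and 436.0. The sums were almost equal, at 3411.0 over 904 bp and 3405.0 over 773 bp, with mean scores of 682 and 681, and the centred ratio was 0.933. All but 1 of these peaks lay between 181 and 1260 bp downstream of the start, in the first coding exon or the intron after it. The exception was a DOP peak 356 bp upstream (chr3:97817005-97817204, percentile 25.3), which overlapped no vehicle peak. When the peaks nearest to each other were paired, the one at 230 bp in the DOP list was 2.46-fold higher than its partner. However, the stretch that contains it (chr3:97817542-97817914) held 2 DOP peaks with a summed score of 2308.5 and 3 vehicle peaks with 2526.0, a ratio of 0.846. The peaks at the Notch2 start reached the 92.2 and 90.3 percentiles of their lists.

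Notch3 (chr17:32257765-32303825, minus strand) encodes a receptor best known from the muscle cells of vessel walls. It had no peak within 10 kb of its start, and the nearest peaks lay 48286 bp (DOP) and 49196 bp (vehicle) away. The 300 bases around its start held 25 CG dinucleotides, a number reached by 4.66% of the start windows with no DOP peak within 1 kb and by 44.1% of those with one.

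Among the ligands, Dll1 and Dll4 belong to the Delta family and Jag1 and Jag2 to the Jagged family. Dll1 (chr17:15504318-15513836, minus strand), which progenitors and newborn neurons present to their neighbours, had 1 peak in each list. The DOP score was 215.3 and the vehicle score 151.0, each over 200 bp, and the centred ratio was 1.33. Both peaks were weak, at percentiles of 25.6 and 18.2, and their centres lay 173 bp apart between 2 annotated starts of the gene, so that they overlapped by 27 bp. This was the largest offset of the 20 matched pairs of member peaks, whose median was 54.5 bp against 30 bp for all 25601 pairs.

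Dll4 (chr2:119151520-119161698, plus strand), a ligand known for its part in blood vessel growth, had no H3K9ac peak at its start. Its 2 DOP peaks had scores of 311.9 and 90.1 and its vehicle peak had 263.0, giving sums of 402.0 over 400 bp and 263.0 over 200 bp and a centred ratio of 1.42. The mean scores were 201 and 263, and the weaker DOP peak (percentile 8.81) overlapped no vehicle peak. Its centre was 275 bp from that of the vehicle peak. All 3 lay past the 3′ end of the gene, the nearest ones by 1946 bp (DOP) and 2053 bp (vehicle). They were within 10 kb only of the start at 119154274, which belongs to a processed transcript, and the start of the protein-coding transcript was 12124 and 12231 bp away. Counted from starts of protein-coding transcripts alone, Dll4 had 0 peaks in both lists, and 7 of the 10 members had a peak.

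Jag1 (chr2:136907192-136942380, minus strand), the Jagged ligand found in many progenitor tissues, had 2 DOP peaks and 4 vehicle peaks. The DOP scores were 375.4 and 483.6, and the vehicle scores were 366.4 and 284.6 for the overlapping peaks and 212.0 and 164.0 for the others. The sums were 859.0 over 400 bp and 1027.0 over 743 bp, with mean scores of 430 and 257 and a centred ratio of 0.779. The direction depended on the peaks that were counted. In the stretch upstream of the start (chr2:136942687-136943177), where each list had 2 peaks, the ratio was 1.22. The 2 vehicle peaks with no DOP counterpart lay on the other side of the start, 381 bp downstream in the UTR and 1977 bp downstream in an intron (scores of 212.0 and 164.0, respectively). Accordingly, the log2 ratio of -0.36 became 0.32 with overlapping peaks only or with the highest peak in place of the sum.

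Jag2 (chr12:114146801-114167706, minus strand) had no peak within 10 kb. The nearest peaks were 12525 bp (DOP) and 12129 bp (vehicle) upstream and were nearest to the start of Nudt14, at 98 and 494 bp. The 300 bases around the Jag2 start held 63 CG dinucleotides at a GC content of 86.0%, the highest of the 34 start windows of the members. By comparison, the median was 23.0 for start windows that had a peak less than 1 kb away and 4.00 for those that did not, in each list. As many as at Jag2 were rare in either class, with 0.00527% of the start windows that had no DOP peak within 1 kb and 0.0436% of those that had one. The coverage of reads at such sequence could not be examined from peak lists, and its part in the absence of a peak was not tested.

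Hes1 (chr16:30064470-30067882, plus strand), which encodes the repressor through which Notch acts in neural progenitors, differed most in number of peaks. It had 11 DOP peaks and 5 vehicle peaks. At least 6 more peaks in the DOP list were found at 5 of 13273 genes with a peak, or 0.0377%, and 0.875% of genes with a DOP peak had 11 or more. The scores of the 11 DOP peaks ran from 123.0 to 633.0 and those of the 5 vehicle peaks from 246.0 to 724.0. The sums were 3976.0 over 2200 bp and 2720.6 over 1000 bp, the mean scores were 361 and 544, and the centred ratio was 1.36 (log2 0.45). There were thus more peaks in DOP-treated cells with a lower mean score, and the highest peak alone gave a log2 ratio of -0.27. With the top 50% of peaks by score in each list, Hes1 had 4 peaks in both, so the difference in number lay among the weaker peaks.

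**Figure D4:**
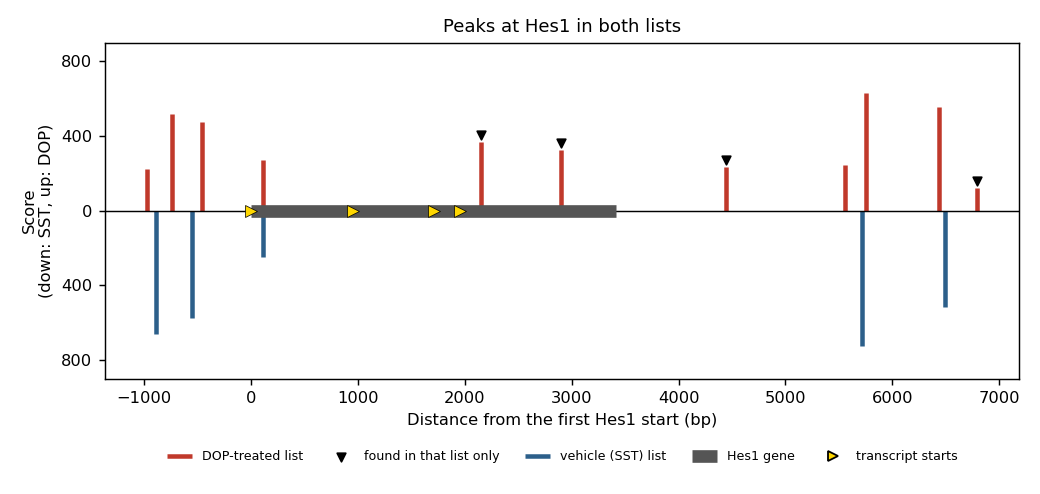
Scores of the peaks at Hes1 by distance in bp from its first annotated start, with DOP peaks drawn upward (red) and vehicle peaks downward (blue). Triangles mark the 4 DOP peaks that overlap no vehicle peak, the grey bar is the gene and the yellow arrows are its transcript starts. The DOP-only peaks lie over the gene body and past its 3′ end.

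All 5 vehicle peaks of Hes1 overlapped a DOP peak, and 4 DOP peaks overlapped no vehicle peak. Of the latter, one lay in an exon 201 bp downstream of the start at 30066424 (score 370.0, percentile 44.5, sequence printed above). One lay in the coding sequence, 947 bp from the same start (chr16:30067271-30067470, score 325.0). The other two lay past the 3′ end of the gene, at chr16:30068814-30069013 (score 234.0) and chr16:30071164-30071363 (score 123.0). The peak with a score of 123.0 was centred 302 bp from the nearest vehicle peak centre, and the others 1275 to 2788 bp. The transcript starts at 30066183 and 30066424, a retained-intron and a processed transcript, had a peak within 1 kb in the DOP list only. The median percentile of the 8 member peaks found only in the DOP list was 26.7, against 15.5 for all DOP-only peaks.

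Where both lists had a peak, Hes1 differed little. Upstream of the gene, the stretch at chr16:30063395-30064115 held 3 DOP peaks with a summed score of 1220.0 and 2 vehicle peaks with 1235.0. Its ratio was 0.914, although 1 pair of peaks within it, at 224.2 and 660.6, differed by a ratio of 0.311. The other 3 stretches found in both lists had ratios of 1.01, 1.12 and 0.998. With joined stretches, the DOP list had 8 and the vehicle list 4. A difference of at least 4 was found at 38 genes, or 0.286% of those with a peak. Downstream of the 3′ end lay 5 DOP peaks with a sum of 1792.0 and 2 vehicle peaks with 1239.6.

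Hey1 (chr3:8663362-8667039, minus strand), a target gene whose protein is a repressor related to HES1, had 1 peak in each list, upstream of its only start by 705 bp (DOP) and 643 bp (vehicle). The scores were 315.0 and 305.0, each over 200 bp, and the centred ratio was 0.962. The peak was at nearly the same percentile in both lists (38.2 and 38.8). Hes1 and Hey1, the targets compared here, therefore gave different values within 1 role, and this difference was not tested.

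Rbpj (chr5:53947018-54048684, plus strand) encodes the protein that recruits the Notch intracellular domain to DNA, and it had the highest-scoring peaks of the set. The DOP scores were 529.0, 641.0, 961.3 and 1398.7, and the vehicle scores were 270.0, 510.0, 860.0, 1355.3 and 1337.7, in order along the chromosome. The sums were 3530.0 over 800 bp and 4333.0 over 1000 bp, with mean scores of 882 and 867 and a centred ratio of 0.759 (log2 -0.40). The strongest peaks reached percentiles of 95.5 and 94.9. All 4 DOP peaks overlapped vehicle peaks, between 1044 bp upstream and 455 bp downstream of the starts at 53981454 and 53981813. The stretches nearest to these starts had ratios of 0.690 and 0.656, and the outer ones 0.960 and 0.967. The fifth vehicle peak (chr5:53955847-53956046, percentile 34.4) lay in an intron 8929 bp downstream of the distal start at 53947018, and no DOP peak overlapped it.

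Because RBPJ binds the core TGGGAA, this motif was searched on both strands, that is TGGGAA or TTCCCA on the strand of the gene. It occurred in 5 of 30 DOP peaks (16.7%) and 5 of 24 vehicle peaks (20.8%) of the members, compared with 16.0% and 15.5% of all peaks of the lists. Around starts (250 bases before and 50 after), 14 of 34 member windows in 7 genes held it, against 24.0% of 70064 windows of protein-coding genes, and many windows of one gene overlap. These shares describe letters in the genome and not binding. Of the member peaks, the median GC content was 65.5% (DOP) and 68.8% (vehicle), against 59.5% for all peaks of each list, and the median number of CG dinucleotides was 17.5 and 21.5, against 10 and 11.

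In Hes1, 2 copies of the core lay in front of the start of the protein-coding transcript (30065426), 78 and 64 bp upstream of it on the strand of the gene. They are shown with the core in capitals, at chr16:30065334-30065363 and chr16:30065348-30065377, because both lie within the best known target promoter of the pathway.
Hes1 core at 78 bp: tgaaagttactgTGGGAAagaaagtttggg
Hes1 core at 64 bp: ggaaagaaagttTGGGAAgtttcacacgag
Neither was within a peak in either list. The nearest peak centres were 763 bp (DOP) and 765 bp (vehicle) from the first core and 777 and 779 bp from the second, and the start itself was 841 and 843 bp from the nearest ones. Of the 17 cores in the start windows of the members, 1 lay within a peak, in both lists, and it was 212 bp upstream of the Rbpj start at 53981454. A second core 16 bp upstream of the same start lay in no peak.

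To place these genes in the wider pathway, 48 further Notch pathway genes were examined in the same way. Of these, 43 had a peak within 10 kb in each list (89.6%, against 57.7% and 56.9% of all genes), 42 in both, and 4 in neither (the ligands Dlk1 and Dner, the co-activator Maml2 and the ubiquitin ligase Dtx1). Heyl, a target, had a peak in the DOP list only, with a score of 52.0 (percentile 3.93), and Mfng, a glycosyltransferase that modifies Notch receptors, had 2 peaks in the vehicle list only, with a summed score of 69.2. Peaks of both genes were among the weakest of their lists. Counting only peaks nearest to the gene itself, 40 genes had a peak in the DOP list and 39 in the vehicle list, since the peaks of Dll3, Hes5 and Ncstn were all nearest to the starts of Timm50, Pank4 and Copa, respectively, and the vehicle peaks of Psenen to those of other genes. The median log2 ratio of the 42 genes was -0.02.

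Of all genes with a peak in both lists, 3.83% had a summed score more than 1.5-fold higher in the DOP list. This was so at 3 of the 42 further pathway genes. All 3 had more peaks in the DOP list with a lower mean score, and 0 of the 42 were past 1.5-fold higher when only overlapping peaks were summed. Lfng, the glycosyltransferase that tunes the response of Notch to its ligands, had 5 DOP peaks with a sum of 1294.0 and 2 vehicle peaks with 628.5, a ratio of 1.92. The covered lengths were 1000 and 400 bp, the mean scores 259 and 314, and the ratio over overlapping peaks 1.20. Hey2, a target, had 2 DOP peaks with 397.0 and 1 vehicle peak with 220.0, a ratio of 1.68. They covered 400 and 200 bp with mean scores of 198 and 220, and the overlapping peaks gave 1.24. Psenen, a subunit of gamma-secretase, had a ratio of 1.62 from sums of 3205.0 over 1533 bp and 1842.0 over 800 bp, with mean scores of 401 and 460. Its overlapping peaks gave 1.14, and 6 of its 8 DOP peaks and all of its 4 vehicle peaks were nearest to the starts of Hspb6, Lin37 or U2af1l4.

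**Figure D5:**
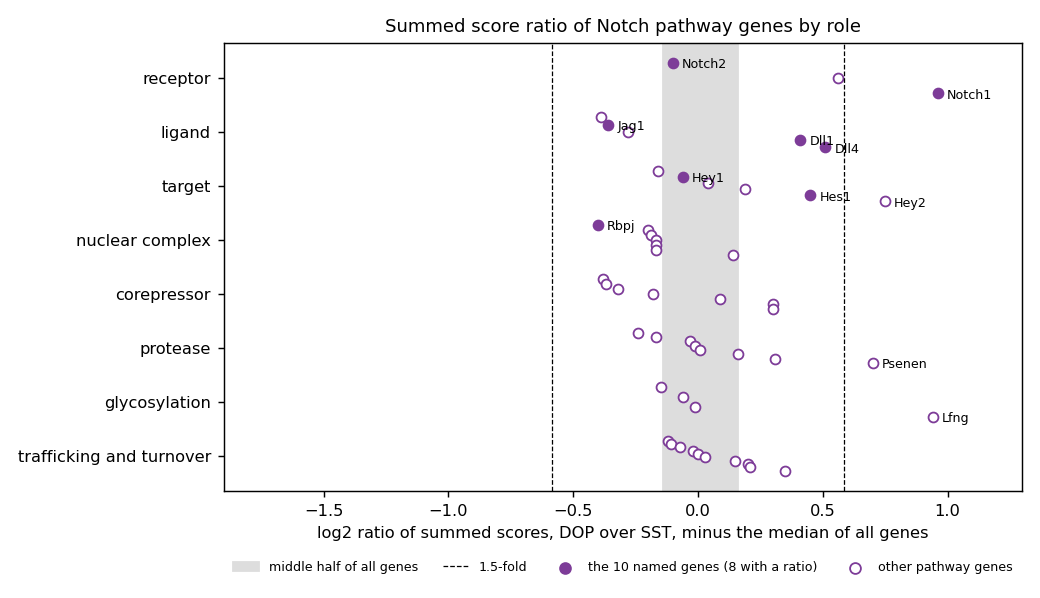
Centred log2 ratio of summed scores (DOP over vehicle) of the Notch pathway genes with a peak in both lists, by role. Filled points are the members and open points the other pathway genes. The grey band is the interquartile range of all genes with a peak in both lists (-0.14 to 0.16), and the dashed lines mark 1.5-fold. Notch1, Lfng, Hey2 and Psenen lie above the upper line.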

How the data were processed

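H3K9ac ChIP-seq of STHdh Q111 cells was analysed from the deposited peak lists, 1 per condition. The authors aligned reads to mm9 with Bowtie 2 according to the study's methods, whereas the submitters' processing notes name BWA 0.7.10, and called peaks with GPS. How samples and the IgG control entered the call, and the threshold, are not given in the sources used here. Why both lists hold more peaks than the study's methods report for treated and untreated samples is not given either. The authors' score of each peak was used as deposited, and its definition is not stated. Reads, the IgG sample and transcripts were not analysed here.

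Peak centres were assigned to the transcript starts of GENCODE vM1 protein-coding genes within 10 kb. Peaks overlapping by at least 1 bp were shared. Pairs were mutually nearest centres within 500 bp. Summed score ratios were centred on the median of all genes with a peak in both lists, and called past 1.5-fold. With 1 list per condition no test was possible. The members and lists were chosen with earlier results of these data known. Named were all members, for each the highest peak and every peak found in 1 list only, and pathway genes with peaks in 1 list, in neither list, or past 1.5-fold. One gene of the pathway list is not reported here and was left out of its counts. Peaks that describe a stretch or a nearby start were named after their values were seen. Alternatives were windows of 1, 5 and 20 kb, the top 50% of peaks by score, peaks nearest to the gene, other sharing rules, centring on total score and the highest peak. Added after seeing the data were a minimum score of 100, starts of coding transcripts, overlapping peaks only, joined stretches and, for the pathway list, peaks nearest to the gene. The functions for counts per gene, overlap and summed score ratios were tested on simulated, well separated peaks at isolated genes. Joined stretches, pairs, positions and sequence counts were not part of that test. Python 3.11.15, numpy 2.4.6, pandas 2.3.3, scipy 1.17.1 and matplotlib 3.10.9 were used.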

Additional observations from a re-analysis of the deposited data

How the results depend on the processing

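Of 313 recomputed values, 269 stayed within the limits set for a change (1.5-fold for counts and percentiles, and for ratios a shift of no more than 1.5-fold on the same side of the 1.5-fold call) and 44 did not, and 0 called ratios changed sign. Among the values over all members, those that moved did so mainly with the top 50% of peaks by score, where 5 members had a peak in the DOP list and 4 in the vehicle list, the number of peaks was 14 in each list, and 13 DOP peaks were shared. With a window of 1 kb the members had 19 DOP peaks. Of the further pathway genes, 0 in place of 3 were past 1.5-fold higher with overlapping peaks only. The median log2 ratio of 0.18 was -0.05 with windows of 1 and 5 kb or with starts of coding transcripts. Ratios that were not called did change sign. With the highest peak, the log2 ratio went from -0.36 to 0.32 at Jag1, from 0.45 to -0.27 at Hes1 and from -0.10 to 0.05 at Notch2. The single call, Notch1, held with windows of 1 and 5 kb, a minimum score of 100, starts of coding transcripts and centring on total score, and was lost in the 3 settings named in the report. No paired analysis was possible because each condition has 1 peak list that carries no replicate number, and for the same reason no replicate could be left out. What the score counts and the depth behind it are unknown, so weak peaks found in 1 list only cannot be told apart from peaks that lie near an unknown threshold.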
